A study of Drosophila melanogaster with 2 samples.

Results

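The nuclear genes of the mitochondrial ribosome were examined for binding of Nemo fused to green fluorescent protein (GFP) in Drosophila melanogaster embryos. They were taken as the protein-coding genes whose symbols begin with mRpL (47 genes, large subunit) or mRpS (26 genes, small subunit). These were 73 of the 13968 protein-coding genes on the 7 chromosomes of the Ensembl release 115 annotation. A summit, the highest point of a peak, was assigned to a gene if it fell within 1000 bp of any of the gene's transcription start sites (TSSs), and the strength of the gene was the signal value of its strongest such peak.

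Chromatin immunoprecipitation and sequencing (ChIP-seq) had been carried out on whole embryos of both sexes, 0 to 24 h of age, from a transgenic line with nmo joined at its C-terminus to GFP. An antibody against GFP was used on chromatin sonicated to between 200 and 800 bp, and the series forms 1 group of 2 biological replicates, numbered 2 and 3. The labels do not say which promoter drives the fusion or whether the endogenous nmo gene was still present. No untagged or input sample was analysed here, so the values are peak strengths and not differences between conditions, no test was made, and each share is set beside the same share of all genes.

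Mitochondrial ribosomes translate the few messages made from mitochondrial DNA, nearly all of which encode membrane subunits of the respiratory chain. Their RNAs come from mitochondrial DNA, while every one of their proteins considered here is encoded in the nucleus, made in the cytosol and imported. Some of these proteins descend from bacterial ribosomal proteins and hold the corresponding positions, and others were added in mitochondria. Nemo is a serine/threonine kinase related to the mitogen-activated protein kinases that acts in Wnt signalling and planar polarity. It is not known as a sequence-specific DNA-binding protein. A peak is therefore read here as chromatin that held the tagged kinase, whether directly or through other proteins. With no untagged or input sample analysed, peaks that do not depend on the fusion cannot be told apart from these. The embryos held all cell types, and occupancy in few cells cannot be told apart from weaker occupancy in many.

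The authors' 4 peak lists were used. The main list held the 9299 peaks that the authors kept after a threshold on the IDR (irreproducible discovery rate), which compares the order of peaks in the replicates. The pooled list and the list of each replicate held 30000 peaks each. Signal values are on the peak caller's own scale in each list, so they are compared only within a list. The lowest signal value in the IDR list was 166 and the highest was 7478.

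The DNA under the strongest peaks is shown here to give the sequence that carried the signal. The stretches are the parts of the summit window, 100 bp to either side of the summit, that lie outside annotated exons, for 6 of the 7 strongest members, written 5′ to 3′ on the strand of the ribosomal protein gene. All are on assembly dm6, with sequence from the RefSeq copy of that assembly.
mRpS10 (chr3R:15229432-15229632, plus strand): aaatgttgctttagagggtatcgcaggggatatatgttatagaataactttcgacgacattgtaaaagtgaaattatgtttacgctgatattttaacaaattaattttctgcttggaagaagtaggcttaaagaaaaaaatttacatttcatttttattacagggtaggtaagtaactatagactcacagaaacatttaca
mRpS23 (chr2L:13835346-13835546, minus strand): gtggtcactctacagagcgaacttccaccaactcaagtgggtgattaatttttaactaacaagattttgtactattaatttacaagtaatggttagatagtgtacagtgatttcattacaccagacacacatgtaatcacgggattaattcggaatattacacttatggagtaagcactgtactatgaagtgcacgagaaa
mRpL23 (chr3L:2373516-2373596, minus strand): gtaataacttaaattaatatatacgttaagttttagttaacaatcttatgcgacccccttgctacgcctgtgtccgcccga
mRpL24 (chr2L:4945384-4945578, minus strand): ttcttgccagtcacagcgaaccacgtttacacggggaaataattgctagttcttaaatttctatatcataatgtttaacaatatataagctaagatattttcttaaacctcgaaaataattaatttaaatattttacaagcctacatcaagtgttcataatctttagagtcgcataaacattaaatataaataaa
mRpL20 (chr3L:13018046-13018246, minus strand): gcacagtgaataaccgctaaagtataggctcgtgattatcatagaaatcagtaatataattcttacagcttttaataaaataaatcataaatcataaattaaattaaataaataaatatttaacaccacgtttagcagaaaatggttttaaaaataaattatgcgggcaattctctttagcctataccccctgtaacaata
mRpS2 (chr2L:4850481-4850640, minus strand): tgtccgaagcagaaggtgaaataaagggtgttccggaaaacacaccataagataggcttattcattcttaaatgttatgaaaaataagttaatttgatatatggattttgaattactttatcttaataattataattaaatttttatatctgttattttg
The stretches were rich in A and T, with a GC content between 25% at mRpS2 and 38.3% at mRpL23. Over the whole summit windows, exons included, the median GC content was 33.3% for the 54 members with an IDR summit. For all genes with an IDR summit it was 34.3%, so a low GC content was not particular to the members. For mRpL23 the summit itself lay in an annotated exon, and the stretch shown is the intron next to it.

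An IDR summit lay near 54 of the 73 genes (74.0%), where 43.8% of all protein-coding genes had an IDR summit. A pooled summit lay near 68 (93.2%), where the share of all genes was 61.8%. In replicate 2 the count was 72 (98.6%), beside 62.2% of all genes, and in replicate 3 it was 63 (86.3%), beside 61.1%. The share of ribosomal protein genes with a summit was thus above that of all genes in each of the 4 lists, by more in replicate 2 than in replicate 3. Outside the IDR list many peaks were weak. A q-value over 0.05 was given to 13874 of the 30000 pooled peaks, 12737 of replicate 2 and 14776 of replicate 3. Such peaks are counted here for members and for all genes alike. Both replicates had a summit near 62 of the 73 genes (84.9%), beside 55.7% of all genes. All 54 strongest summits were at distinct positions, so no 2 of these genes were counted on the same peak.

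The peaks were of about the strength seen at other genes, apart from a few that stood far above. The signal value of the 54 members with an IDR summit ran from 170 to 6107 with a median of 455 and quartiles of 332 and 691. Over all 6122 genes with an IDR summit the median was 407, with quartiles of 271 and 669. Of the 54 members, 30 (55.6%) were above the median of all genes. When only the 4649 strongest IDR peaks were kept the order of the medians turned, with 545 for members and 577 for all genes. It also turned, by little, when only summits nearest to the gene's own TSS were kept, with 379 for members and 383 for all genes. Among the 100 strongest peaks of the list, however, lay the summits of 4 of the 54 members (7.41%), beside 108 of the 6122 genes (1.76%). Among the 1000 strongest lay those of 11 members (20.4%), beside 15.3% of all genes.

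**Figure D1:**
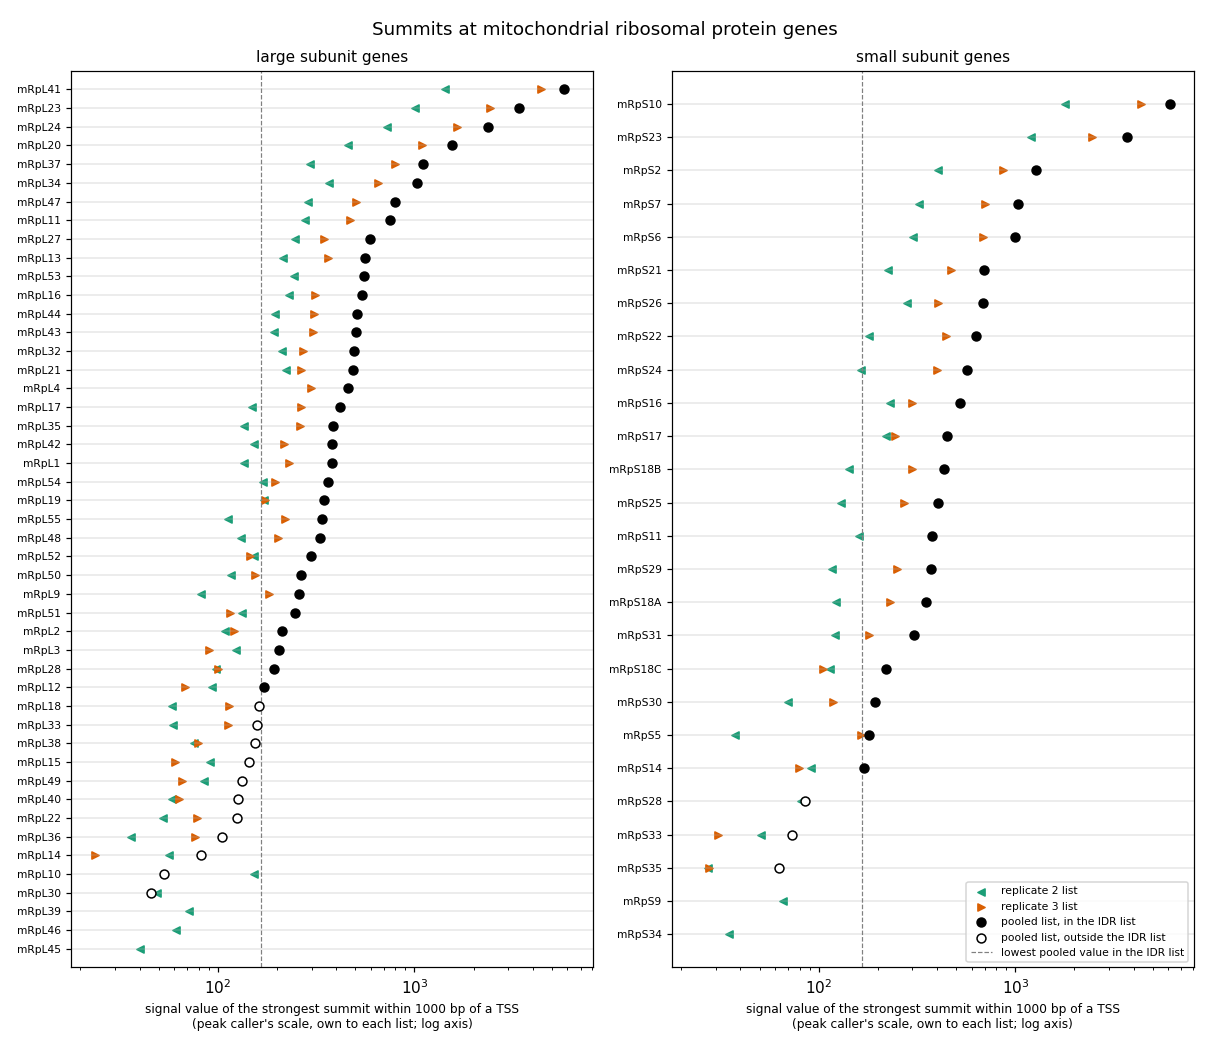
Signal value (log axis, the peak caller's scale, own to each list) of the strongest summit within 1000 bp of a TSS for each of the 73 genes, with large subunit genes on the left and small subunit genes on the right. Triangles are the replicate lists, filled circles pooled peaks in the IDR list, open circles pooled peaks outside it, and the dashed line the lowest value in the IDR list, 166. The 4 genes at the upper ends (mRpS10, mRpL41, mRpS23 and mRpL23) lie at 3422 or above in the pooled list, and the 5 genes at the lower ends have a replicate 2 triangle only.

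The strongest peak belonged to mRpS10 (FBgn0038307, chr3R:15229665-15230516, plus strand), the counterpart of a bacterial protein in the head of the small subunit. Its signal value was 6107 in the IDR list, which placed it 4th of all 9299 peaks. It was 1793 in replicate 2 (rank 9) and 4339 in replicate 3 (rank 5). These values were 15.1 and 24.6 times those of the median gene with a summit in the same list. The summit lay 133 bp upstream of the mRpS10 TSS and 124 bp upstream of that of Art3, an arginine methyltransferase gene that runs the other way. It was thus near the middle of the 257 bp between the start sites.

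Next came mRpL41 (FBgn0034001, chr2R:15217024-15217617, minus strand), which encodes a large subunit protein without a bacterial counterpart. Its signal value was 5798 in the IDR list (rank 7), 1434 in replicate 2 (rank 18) and 4381 in replicate 3 (rank 4). Its head-to-head neighbour CG8079 starts 762 bp away, and the summit lay 138 bp upstream of mRpL41 and 624 bp upstream of CG8079. Here the summit was closer to the ribosomal protein gene than to its neighbour.

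mRpS23 (FBgn0260407, chr2L:13834250-13835072, minus strand), also specific to mitochondria, had a signal value of 3678 in the IDR list (rank 33), 1203 in replicate 2 (rank 40) and 2464 in replicate 3 (rank 32). Its summit lay 374 bp upstream of its own start and 118 bp upstream of CenG1A, which encodes a protein of the ArfGAP family, so the neighbour was the closer gene. mRpL23 (FBgn0035335, chr3L:2372844-2373704, minus strand), the counterpart of a bacterial protein at the mouth of the exit tunnel, had 3422 in the IDR list (rank 43), 1006 in replicate 2 (rank 68) and 2429 in replicate 3 (rank 33). Its summit lay 62 bp downstream of the nearest of its start sites and 112 bp upstream of CG9004. Among the 10 strongest members this was the one with its summit inside the ribosomal protein gene.

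The other 6 of the 10 strongest had summits upstream of the ribosomal protein gene. mRpL24, next to mRpL23 at the exit tunnel in bacteria, had 2372 in the IDR list (rank 131), 727 in replicate 2 (rank 168) and 1649 in replicate 3 (rank 116), with the summit 123 bp upstream and 95 bp upstream of betaggt-I, a geranylgeranyl transferase subunit gene. mRpL20, whose bacterial counterpart acts early in large subunit assembly, had 1554 (rank 361), 459 in replicate 2 and 1095 in replicate 3, with the summit 279 bp upstream and 120 bp upstream of Icmt, a carboxyl methyltransferase gene. mRpS2 had 1267 (rank 538), 406 in replicate 2 and 866 in replicate 3, with the summit 162 bp upstream and 60 bp upstream of Mon1, a gene of vesicle traffic. In these 3 pairs the summit was closer to the neighbour.

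mRpL37, specific to mitochondria, had 1099.6 in the IDR list (rank 698), 293 in replicate 2 and 800.5 in replicate 3, and its summit lay 151 bp upstream. mRpS7, whose bacterial counterpart starts assembly of the small subunit head, had 1035 (rank 784), 325 in replicate 2 and 699 in replicate 3, and its summit lay 179 bp upstream and 221 bp upstream of the mitotic kinase gene Cdk1. mRpL34 had 1028 (rank 796), 368 in replicate 2 and 650.0 in replicate 3, and its summit lay 198 bp upstream and 186 bp upstream of the dystroglycan gene Dg. All 10 stood within the first 1139 peaks of replicate 2 and within the first 841 of replicate 3.

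Summits were found at both subunits, at near equal strength. An IDR summit lay near 33 of 47 large subunit genes (70.2%) and 21 of 26 small subunit genes (80.8%), beside 43.8% of all genes. Their median signal values were 459 and 452. By family number alone, 33 of the 42 genes counted as having a bacterial counterpart (78.6%) had an IDR summit, with a median of 459. Of the 31 counted as specific to mitochondria 21 (67.7%) had one, with a median of 405. The small subunit genes of the first class had the highest share, 13 of 14 (92.9%), and those of the second the lowest, 8 of 12 (66.7%). The number does not always give descent, so these shares may change with another assignment. Symbols do not always give the place of the protein: in mammals the counterparts of mRpS18A and mRpS30 sit in the large subunit, and counting them there gave 35 of 49 large (71.4%) and 19 of 24 small subunit genes (79.2%).

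Sorted by the place of the bacterial counterpart in the ribosome, each of 5 groups of genes held summits. The groups held 3 to 7 genes each, so their counts are given as a description only. An IDR summit lay near 43.8% of all genes, and near 73% of all genes with a head-to-head neighbour within 1000 bp. At the exit tunnel and its rim, 6 of 7 genes had an IDR summit, with a median of 644: mRpL23 and mRpL24 were followed by mRpL47 (796), the counterpart of bacterial L29, mRpL32 (491), mRpL4 (459) and mRpL17 (417), and mRpL22 had a weaker pooled summit only. Around the peptidyl transferase centre, where peptide bonds are made, all 4 genes had one, between 206 at mRpL3 and 594 at mRpL27. Of the genes of the stalk, which recruits the translation factors, mRpL11 at its base had 749 and mRpL12 had 171. mRpL10, which anchors mRpL12 to the ribosome, had no IDR summit.

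In the small subunit head, 4 of 5 genes had an IDR summit, with a median of 1151. They included the strongest member, mRpS10 (6107), and the weakest, mRpS14 (170), while mRpS9 had neither an IDR nor a pooled summit. All 7 genes of the platform and body had an IDR summit, where 43.8% of all genes did. Their signal values lay between 180.4 at mRpS5 and 995 at mRpS6, with a median of 452. The small subunit head alone thus spanned the whole range of strength of the 54 members.

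The weakest members with an IDR summit lay just inside the list, and 3 others lay just outside it. mRpS5 had a pooled signal value of 180.4 (rank 8661), with 37.6 in replicate 2 and 165 in replicate 3. mRpL12 had 171 (rank 9075), with 93.3 in replicate 2 and 68.1 in replicate 3. mRpS14 had 169.8 (rank 9125), with 91.9 in replicate 2 and 79.2 in replicate 3. At mRpS5 the replicate 2 summit was a different one, 968 bp upstream of a TSS where the pooled summit was 44 bp downstream. Just outside, mRpL18 had 162 (rank 9455), mRpL33 had 158 (rank 9622) and mRpL38 had 154 (rank 9830), so these 6 genes on either side of the edge differed by little.

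Of the 19 members without an IDR summit, 14 had a weaker pooled summit. The 3 just named were followed by mRpL15 at 144, mRpL49 at 133, mRpL40 at 127, mRpL22 at 125 and mRpL36 at 105. The remaining 6 were mRpS28 at 85.4, mRpL14 at 82.3, mRpS33 at 72.7, mRpS35 at 62.9, mRpL10 at 53.5 and mRpL30 at 45.9. The authors' q-value was at or under 0.05 for 10 of the 14 and over it for the last 4. In the replicates their signal values ran from 27.3 at mRpS35 to 152 at mRpL10 in replicate 2, and from 23.7 at mRpL14 to 115 at mRpL18 in the 11 with a summit in replicate 3.

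mRpL10 stood apart within these 14. Its summit in replicate 2, 73 bp upstream of its start, had a signal value of 152 and rank 3642, which is 1.28 times the median gene with a summit in that list. Replicate 3 had no summit within 1000 bp, and the pooled summit was weak and at another place, 116 bp downstream. The other 2 members of the 14 with no summit in replicate 3, mRpS28 and mRpL30, had 81.4 and 49.3 in replicate 2.

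The 5 members with no pooled summit each had a summit in replicate 2 only. The signal values there were 71.2 at mRpL39, 66.1 at mRpS9, 61.1 at mRpL46, 40.3 at mRpL45 and 35.0 at mRpS34, all below the median of 119 for genes with a summit in that list. Their nearest pooled summits lay 5058, 4841, 1924, 4284 and 3892 bp from the TSS. mRpL45 corresponds to a mammalian protein near the tunnel exit on the side that faces the inner membrane, and mRpL39, mRpL46 and mRpS34 are likewise specific to mitochondria.

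Both replicates had a peak over the pooled summit at 50 of the 54 members with an IDR summit. Across these 50 the log2 signal values had a Pearson correlation of 0.95 and a Spearman correlation of 0.91. Every member in the IDR list had the same rank there as in the pooled list, down to mRpS14 at 9125. Among these members the list thus kept the stronger pooled peaks, not only those found in both replicates. The correlations describe the chosen peaks and say nothing of the other members. A summit in replicate 2 but not in replicate 3 was found for 10 members (13.7%), beside 6.51% of all genes. The reverse was found for mRpL4 only (1.37%), beside 5.40% of all genes. mRpL4 had 297 in replicate 3 and 459 in the IDR list. mRpL53 and mRpS11 had an IDR summit, at 552 and 378, with none within 1000 bp in replicate 3, where replicate 2 had 245 and 160.2.

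These genes are small and closely packed, and most share a promoter region with a neighbour. Their median length was 909 bp, beside 2164.5 bp for all genes, and 67 of 73 (91.8%) had 1 annotated TSS, beside 73.5%. A head-to-head partner, taken as a protein-coding gene on the other strand whose TSS lay at most 1000 bp upstream, was found for 58 of 73 (79.5%), beside 5052 of all 13968 genes (36.2%). The start sites of these pairs were a median of 283 bp apart, from 20 at mRpL18 and Taz to 793 at mRpL4 and CG4440, and over all genes with such a partner the median was 298 bp.

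Summits were more frequent in this arrangement, among the members as among all genes. An IDR summit lay near 49 of the 58 head-to-head members (84.5%), where 73% of all head-to-head genes had one. It lay near 5 of the 15 others (33.3%), where 27.3% of all genes without a partner had one. Set beside genes of the same arrangement, the members' shares were 11.4 and 6.06 percentage points higher, beside 30.1 points when arrangement was left out. In the pooled list the counts were 56 of 58 (96.6%), beside 84.4%, and 12 of 15 (80.0%), beside 49%. The 5 members with an IDR summit and no partner were mRpL13 (558), mRpL19 (345), mRpL9 (260), mRpS5 (180.4) and mRpL12 (171), with a median of 260. The median of the 49 head-to-head members was 487, beside 449.6 for all head-to-head genes with an IDR summit.

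**Figure D2:**
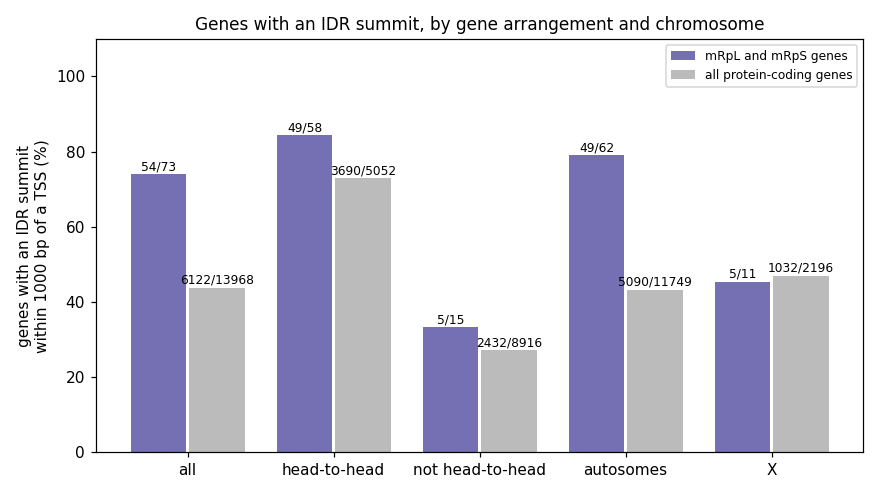
Share of genes with an IDR summit within 1000 bp of a TSS (vertical axis, percent, from 0), for the mRpL and mRpS genes and for all protein-coding genes, by head-to-head arrangement and by chromosome. Numbers over the bars are genes with a summit and genes in all. The bars of the ribosomal protein genes stand higher in every class but the X chromosome, where 5 of 11 had a summit.

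The X chromosome was the exception. Of 11 X-linked members, 5 had an IDR summit (45.5%), beside 47.0% of all X-linked genes, while 49 of 62 autosomal members had one (79.0%), beside 43.3%. Among head-to-head members the counts were 5 of 9 on the X, beside 75.9% of all X-linked head-to-head genes, and 44 of 49 on the autosomes (89.8%), beside 72.5%. The 5 with a summit were mRpL16 (539), mRpS25 (405), mRpL3 (206), mRpS30 (193) and mRpS14 (170), with a median of 206. The other 6, mRpL33, mRpL38, mRpL49, mRpL22, mRpL14 and mRpL30, all had a pooled summit. At mRpL33 (158) and mRpL38 (154) it lay just below the lowest signal value in the IDR list, 166, so the low X-linked count depends in part on where that list ends. On the autosomal arms the counts were 11 of 12 on 2L (91.7%, beside 41.3% of all genes there), 10 of 12 on 2R (83.3%, beside 43.4%), 11 of 17 on 3L (64.7%, beside 43.3%) and 17 of 21 on 3R (81.0%, beside 45.2%).

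The summits sat just upstream of the genes. Relative to the nearest TSS of the gene the strongest summit had a median position of −130 bp with quartiles of −184.5 and −54.25, beside −129 bp, −241 and −45 over all genes. It was upstream of the TSS in 49 of 54 members (90.7%), beside 86.4%, and within 250 bp of it in 47 (87.0%), beside 71.1%. The median position was thus within 1 bp of that of all genes, and the quartiles lay closer together. The exception beyond 500 bp was mRpS25, whose summit lay 523 bp upstream, with signal values of 405 (IDR list), 129.8 (replicate 2) and 273 (replicate 3); nmdyn-D6, its head-to-head partner, starts 172 bp from that summit.

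In 40 of the 49 head-to-head members with an IDR summit (81.6%) the summit lay between the start sites. The other 9 were mRpL23, mRpL11, mRpL27, mRpS11, mRpS18A, mRpL48, mRpL51, mRpS18C and mRpS14. Their start sites were 21 to 126 bp apart, beside a median of 283 bp over all 58 head-to-head members. The median peak width over the 54 members was 427 bp, which is wider than all of these distances. Why these 9 differ was not tested. The share of summits between start sites was not counted over all head-to-head genes, so whether the members differ in this is not known. The TSS of another protein-coding gene lay within 1000 bp of the strongest summit for 50 of 54 members (92.6%), beside 62.5% of all genes. The member's own TSS was the nearest for 27 of 54 (50%), beside 69.1% of all genes. For mRpL53 and mRpL13 the question has no answer, since the first shares its TSS with CG33155 and the second with CG10602. The peak lists do not tell which gene of a pair a summit belongs to.

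**Figure D3:**
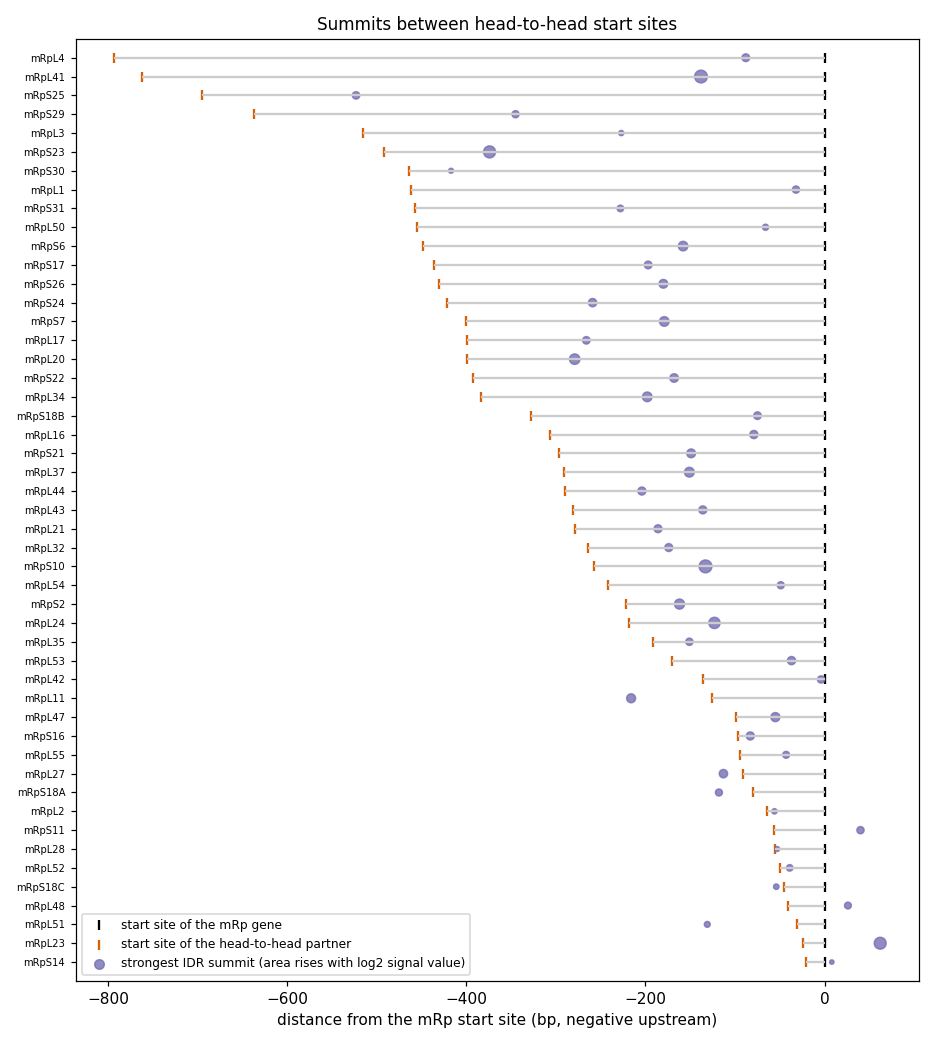
Position of the strongest IDR summit (circle, area rising with the log2 signal value) relative to the TSS of each of the 49 head-to-head ribosomal protein genes with an IDR summit (black tick at 0), with the TSS of its partner (orange tick). The horizontal axis is distance in bp, negative upstream. The circle lies between the ticks for 40 genes, and the 9 others are among the pairs with the closest start sites. The same share over all head-to-head genes was not counted.

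A short word recurred at the start sites of these genes. Among 370 six-letter words found in the promoter windows of at least 14 members, a window being 250 bp before to 50 bp after the most upstream TSS, CAGCTG had the highest ratio between its share of members and its share of all genes. It occurred in 40 of 73 members (54.8%) and in 17.6% of all genes, a ratio of 3.11, and the next word, ACAGCT, overlaps it and had a ratio of 2.58. CAGCTG is an E-box, the kind of site bound by basic helix-loop-helix proteins, and it reads the same on both strands. It was picked out after the promoters had been read, so its counts are given as a description.

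The E-box sat at the TSS itself. Within 50 bp of it, on either side, lay an E-box in 35 of 73 members (47.9%), beside 1347 of all 13968 genes (9.64%). In the 50 bp after the TSS 23 members (31.5%) had one, beside 4.83% of all genes, and in the 50 bp before it 12 (16.4%), beside 5.11%. Farther out, in 50 bp steps from 500 bp before to 300 bp after, the members' share was between 0 and 8.22%. It was as frequent in large subunit genes (23 of 47, 48.9%) as in small subunit genes (12 of 26, 46.2%). By family number, it was in 18 of 42 genes counted as having a bacterial counterpart (42.9%) and 17 of 31 counted as specific to mitochondria (54.8%).

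The sites are shown here, in 30 bases each with the E-box in capitals, for 8 of the 9 strongest members that have one and for the 3 members that have one but no pooled summit. Each is 5′ to 3′ on the strand of the gene.
mRpL23 (chr3L:2373715-2373744, minus strand): gtggttgacaatCAGCTGtttaaaacaagt
mRpL24 (chr2L:4945324-4945353, minus strand): ttcagttctcaaCAGCTGattgcaagccgc
mRpS2 (chr2L:4850413-4850442, minus strand): aacactacccacCAGCTGtttaccaaaatc
mRpS6 (chr3L:4364552-4364581, plus strand): ctttccttgcatCAGCTGttaacactatca
mRpL47 (chr3R:9515873-9515902, minus strand): ttgttattgcttCAGCTGttttgttcggtc
mRpL11 (chr3R:14511821-14511850, plus strand): cagcaataccatCAGCTGttgctgcttctt
mRpS21 (chr3R:13381790-13381819, minus strand): agtgatattcatCAGCTGtttagcagtaca
mRpS24 (chr3R:24163508-24163537, minus strand): cgtcacgtcaatCAGCTGttgctggacgca
mRpL45 (chr3R:22618471-22618500, plus strand): aatcacgtttgcCAGCTGgtcgcgttagtg
mRpL46 (chr3L:1777425-1777454, plus strand): tgtgccgcaaatCAGCTGttccggctctgg
mRpS34 (chr3L:16348064-16348093, plus strand): agccagccggcaCAGCTGttcgaccttccc
In 22 of the 35 members (62.9%) the E-box was followed by TT on the strand of the gene, as it is at mRpL23, mRpS2 and mRpS6. In 8 of the 35 (22.9%) it was preceded by AA, and neither flank was counted over all genes.

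**Figure D4:**
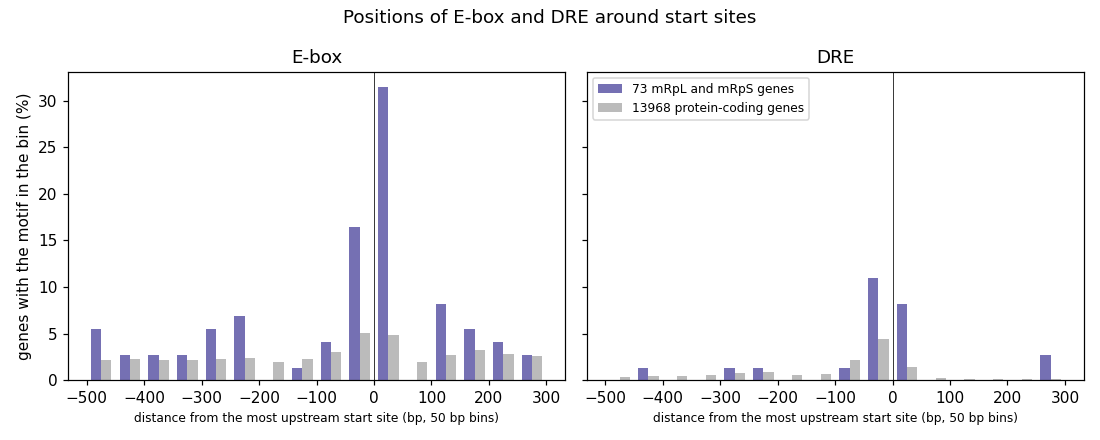
Share of genes (vertical axis, percent) with an E-box CAGCTG (left) or the promoter site TATCGATA, called DRE (right), in each 50 bp bin of distance from the most upstream TSS (horizontal axis, bp, negative upstream), for the 73 ribosomal protein genes and for all 13968 protein-coding genes. The E-box bars of the ribosomal protein genes peak in the 2 bins beside the TSS, at 16.4% and 31.5%, where all genes have 5.11% and 4.83%.

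Summits were found at members with and without the E-box at the TSS. An IDR summit lay near 27 of the 35 members with it (77.1%) and 27 of the 38 without it (71.1%). Over all genes the shares were 60.3% and 42.1%. Read the other way, the E-box was present in 27 of 54 members with an IDR summit (50%), beside 13.3% of all genes with one, and in 8 of 19 members without (42.1%), beside 6.82%. It was as frequent in head-to-head members (28 of 58, 48.3%) as in the others (7 of 15, 46.7%), where the shares of all genes were 13.4% and 7.49%. The median signal value was 487 in members with it and 382 in members without, where over all genes it was 403 and 407.

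The distance between summit and E-box varied. In the 27 members with both, the position of the summit relative to the E-box had a median of −140 bp and ran from −532 to 113 bp, and it was within 100 bp in 11. In the window of 100 bp to either side of the strongest IDR summit, 16 of 54 members (29.6%) had a CAGCTG, beside 12.3% of all genes with an IDR summit. The median signal value was 350 in members with a CAGCTG in this window and 495 in those without. Over all genes it was 313 and 420. For members this is the reverse of the order found with the E-box at the TSS.

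Other promoter motifs were searched on both strands in the same summit windows. The DRE (DNA replication-related element, TATCGATA), the site of the promoter factor DREF, was in 3 of 54 members (5.56%): mRpL16, mRpS18B and mRpL12. Over all genes with an IDR summit it was in 11.6%. Around the TSS, in contrast, 14 of 73 members had it within 50 bp (19.2%), beside 5.78% of all genes, and 5 of these had the E-box as well. Together, 44 of 73 members (60.3%) had an E-box or a DRE within 50 bp of the TSS, beside 14.5% of all genes. The DRE was thus more frequent than over all genes at the start of these genes and less frequent in their summit windows, while CAGCTG was more frequent in both places. These places overlap. In 11 of the 27 members with an IDR summit and an E-box at the TSS, that E-box lay within 100 bp of the summit.

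The shares of the remaining motifs follow. The E-box CACGTG was in 4 of 54 summit windows (7.41%), beside 2.12%. The core promoter elements known as Motif 1, Motif 6 and Motif 7 were in 3, 1 and 5 (5.56%, 1.85% and 9.26%), beside 4.97%, 2.35% and 10.6%. GAGAG, the core of the GAGA factor site, was in 7 (13.0%), beside 16.0%, and TATAAA in 18 (33.3%), beside 38.3%. GCGCATGC, the form bound by nuclear respiratory factor 1 in mammals, was in none of the 54 and in 0.278% of all genes. In the 300 bp promoter windows Motif 7 was in 17 of 73 members (23.3%), beside 9.28% of all genes, and GAGAG in 12 (16.4%), beside 29.7%.

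For contrast, promoters of the first 2 members in symbol order with no IDR summit are shown as the 250 bases before the TSS, with any DRE or CAGCTG in capitals.
mRpL10 (chr2L:203529-203778, plus strand): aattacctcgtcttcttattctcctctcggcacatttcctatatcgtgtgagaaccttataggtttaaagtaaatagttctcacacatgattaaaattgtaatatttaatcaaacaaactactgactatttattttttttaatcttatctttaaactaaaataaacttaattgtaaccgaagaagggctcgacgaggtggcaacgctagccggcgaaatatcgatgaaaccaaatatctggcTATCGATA
mRpL14 (chrX:2344650-2344899, minus strand): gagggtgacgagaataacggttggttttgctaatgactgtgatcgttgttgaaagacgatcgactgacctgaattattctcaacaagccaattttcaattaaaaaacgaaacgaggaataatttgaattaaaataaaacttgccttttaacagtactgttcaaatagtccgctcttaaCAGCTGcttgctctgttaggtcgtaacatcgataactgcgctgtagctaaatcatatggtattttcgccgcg
mRpL10 holds a DRE that ends at the base before the TSS, and mRpL14 holds a CAGCTG upstream of the 50 bp counted above. Neither gene has a head-to-head partner.

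Other nuclear genes of mitochondrial gene expression are given beside the ribosomal protein genes. Of 30 symbols listed for transcription, replication and translation in mitochondria, 28 were in the annotation. An IDR summit lay near 17 of them (60.7%), beside 43.8% of all genes, with a median signal value of 344. A weaker pooled summit lay near 5, and 6 had none. Of the 15 with a head-to-head partner 12 had an IDR summit, where 73% of all head-to-head genes had one. The strongest was at PNPase, an RNA-processing enzyme of mitochondria, with 4986 in the IDR list (rank 13), 1529 in replicate 2 and 3475 in replicate 3. CRIF had 648, mTerf5, of the transcription termination factor family, 606, and mtSSB, which coats single-stranded mitochondrial DNA, 565.

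Among the listed genes, tko and bonsai encode small subunit proteins under other symbols. tko, which encodes the counterpart of bacterial S12 at the decoding site, had signal values of 344 (IDR list), 141 (replicate 2) and 196 (replicate 3). bonsai, of the S15 family, had a pooled summit of 119 outside the IDR list, with 68.1 in replicate 2 and 58.7 in replicate 3. TFAM, which packages mitochondrial DNA, had an IDR summit of 198, and the genes mRRF1, mRRF2, mEFTu2, mIF3, mTTF and mtDNA-helicase had no pooled summit within 1000 bp.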

How the data were processed

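Peaks came from anti-GFP ChIP-seq of 2 biological replicates of nmo-GFP embryos. The authors deposited narrowPeak lists on dm6 for each replicate, for both pooled and after IDR thresholding. Per the deposited notes, each replicate list was called on that replicate's alignments with 1 further file; the aligner, peak caller and IDR threshold are not given in the sources used here. The deposited signal value (column 7) is on the peak caller's scale, and the deposited column 9 is a −log10 q-value, used only to count weak peaks at the 0.05 level. Read depth is unknown, so no interval was given. The replicates are separate biosamples, per the labels.

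Summits (peak start plus offset) were matched to every annotated TSS of each protein-coding gene (Ensembl release 115, BDGP 6.54) within 1000 bp, with Python 3.11.15, pandas 2.3.3 and numpy 2.4.6. Genes were counted as having a bacterial counterpart by family number alone, up to 36 (large) or 21 (small). mRpL47, the counterpart of bacterial L29, therefore counts as specific to mitochondria, and others may be misplaced likewise. Sequence, including promoter windows, was read from RefSeq's Release 6 genome. The matching of summits, pairs and motifs was tested on simulated data. The genes described are the 10 strongest members, the 3 weakest, those without an IDR summit and those with a summit over 500 bp away. Members, lists, roles and motifs were chosen with earlier results of these data known; head-to-head and E-box alternatives, the grouping by place in the ribosome and the E-box examples were chosen after seeing the values. The neighbour of 1 of the 10 strongest members is not reported here.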

Additional observations from a re-analysis of the deposited data

How the results depend on the processing

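Counts of members with an IDR summit are out of 73 here, and the shares of all genes are in percent. The count of 54 stayed within 1.5 times of itself under 7 of 8 alternatives. It ran from 39 when the peak had to cover a TSS (all genes 28.5%) to 68 with all pooled peaks (61.8%). With only summits whose nearest TSS was the member's own it was 29 of 73, beside 32.3% of all genes. The members' share then stood less far above that of all genes than with 54 of 73, beside 43.8%. Their median signal value was then 379, just below the 383 of all genes, which turns the order of the medians. Leaving out a replicate, by taking the 9299 strongest peaks of the other, gave 51 to 57 members (all genes 42.3% and 44.7%) and median signal values of 164 to 273 on those lists' own scales (all genes 155 and 262), with a median position from −131 to −121 bp. In the 4649 strongest IDR peaks there were 40 members (all genes 27.5%) with a median of 545, below the 577 of all genes, which turns the order of the medians, and a position of −143.5 bp; with all pooled peaks the position was −120.5 bp. The count of 3 members with a DRE at the summit became 1 within 50 bp of the summit and 15 of 73 in the promoter windows, 20.5% beside 9.36% of all genes, which turns the order found at the summit. Chosen after seeing the data, a distance of 25 or 100 bp or any TSS gave 28, 38 and 36 members with an E-box (all genes 5.93%, 14.1% and 12.2%), and head-to-head starts within 500 bp gave 53 members, 44 of them with an IDR summit, beside 77.4% of all such genes. No paired analysis was possible because the series has 1 group only. With 2 replicates and no reads, peaks near the edge of a list cannot be told apart from those just outside it.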
